A study of Mus musculus with 9 samples.

Results

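Arg1, Chil3, Mrc1, Retnla, Gpnmb, Trem2, Cd163, Tgfbi and Msr1, 9 of the 32285 genes in the count tables, were chosen by gene symbol because they are widely used to mark macrophages in a scavenging, matrix-forming or tissue-repair state. The choice was made with earlier results of these data known. Nuclear RNA of 9 hearts, 1 library each, was counted nucleus by nucleus, and the mice were wild-type males aged 9 to 10 weeks. NS-Sham hearts had thoracotomy only and normal saline (NS). In NS-I/R the left anterior descending artery was occluded for 45 min and reperfused for 24 h, with saline given. Enpa-I/R hearts had the same ischemia and reperfusion (I/R) and enpatoran, a small-molecule antagonist of the endosomal RNA receptor TLR7, at 5 mg/kg intraperitoneally. Each mouse had 2 injections, the first 1 h before ischemia, while for the second the labels give more than 1 time. There were 3 hearts per group, and none had sham surgery with enpatoran, so a drug effect on the uninjured heart was not measured. Each ± below is the SD over 3 libraries.

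A healthy heart holds resident macrophages that take up debris and dying cell parts, and after ischemia blood monocytes enter the muscle and mature into macrophages while neutrophils arrive early and die in the tissue. The interleukins IL-4 and IL-13 act through the factor STAT6 to induce Arg1, Chil3, Mrc1 and Retnla in mouse macrophages, and hypoxia, C/EBP factors and other signals can induce some of these genes without them. Arg1 encodes arginase 1, which splits arginine into ornithine and urea and so competes with nitric oxide synthase. Chil3 (Ym1) is a secreted chitinase-like protein that neutrophils and monocytes also make, and Retnla (RELM-alpha) is a secreted resistin-like protein. Mrc1 (CD206) and Cd163 are endocytic receptors, for mannose-bearing glycoproteins and for haptoglobin-hemoglobin complexes. Msr1 is scavenger receptor A, which takes up modified lipoproteins. Trem2 is a lipid-sensing receptor and Gpnmb a membrane glycoprotein of lysosome-rich phagocytes. Tgfbi is a secreted matrix protein induced by TGF-beta.

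In the GRCm38 annotation (GENCODE M21) the genes lie apart on the genome: Arg1 (ENSMUSG00000019987) on chromosome 10 at 24915221 to 24927484, Chil3 (ENSMUSG00000040809) on chromosome 3 at 106147554 to 106167564, Mrc1 (ENSMUSG00000026712) on chromosome 2 at 14229392 to 14332057, Retnla (ENSMUSG00000061100) on chromosome 16 at 48842551 to 48844461 and Gpnmb (ENSMUSG00000029816) on chromosome 6 at 49036546 to 49070929. Trem2 (ENSMUSG00000023992) lies on chromosome 17 at 48346401 to 48354147, Cd163 (ENSMUSG00000008845) on chromosome 6 at 124304656 to 124330527, Tgfbi (ENSMUSG00000035493) on chromosome 13 at 56609523 to 56639562 and Msr1 (ENSMUSG00000025044) on chromosome 8 at 39581685 to 39642673. The count tables hold no coordinates, and the submitters' processing notes name a later mouse build. RefSeq promoters (GRCm38.p6) were at hand for 7 of the 9 genes; Arg1 and Msr1 had no entry. Cd163 was the only member called lower after I/R over all macrophage-like nuclei, though within neither macrophage-like cluster. Its promoter is printed with those of the 3 genes whose difference between drug and saline differed between neutrophils and macrophages (Chil3, Tgfbi and Mrc1). Each is read 5′ to 3′ on the gene's strand up to the RefSeq or GENCODE start that comes first, with capitals marking motif matches.
Chil3, chr3:106167565-106167814, minus strand: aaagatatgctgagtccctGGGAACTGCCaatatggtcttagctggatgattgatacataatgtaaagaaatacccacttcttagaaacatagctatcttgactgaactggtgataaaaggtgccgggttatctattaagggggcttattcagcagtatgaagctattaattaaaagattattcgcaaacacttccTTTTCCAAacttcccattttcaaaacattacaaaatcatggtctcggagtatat
Tgfbi, chr13:56609336-56609522, plus strand: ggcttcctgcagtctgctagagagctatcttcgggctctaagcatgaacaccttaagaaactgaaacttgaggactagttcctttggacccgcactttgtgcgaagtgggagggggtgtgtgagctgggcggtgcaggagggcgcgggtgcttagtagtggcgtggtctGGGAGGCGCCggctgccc
Mrc1, chr2:14229164-14229391, plus strand: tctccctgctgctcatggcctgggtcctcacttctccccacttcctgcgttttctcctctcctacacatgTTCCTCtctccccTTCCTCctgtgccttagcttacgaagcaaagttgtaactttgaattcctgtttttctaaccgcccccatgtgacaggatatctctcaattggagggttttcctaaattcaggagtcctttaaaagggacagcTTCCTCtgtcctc
Cd163, chr6:124304401-124304650, plus strand: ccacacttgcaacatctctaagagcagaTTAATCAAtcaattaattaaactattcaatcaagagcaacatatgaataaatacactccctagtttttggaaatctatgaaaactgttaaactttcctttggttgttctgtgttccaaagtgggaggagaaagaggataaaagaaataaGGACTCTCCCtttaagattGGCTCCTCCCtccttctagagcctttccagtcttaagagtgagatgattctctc

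Motifs were searched on both strands in the 250 bases before each RefSeq start, and positions are counted back from that start. The Chil3 window held an NF-kB match (GGG, 5 bases of any kind and CC, here GGGAACTGCC at 231 to 222) and a C/EBP-type match (TTGNNNAA, as TTTTCCAA on the other strand at 54 to 47). The Tgfbi window held 1 NF-kB match, GGGAGGCGCC at 81 to 72. The Cd163 window held a C/EBP-type match (TTAATCAA at 222 to 215) and NF-kB matches at 73 to 64 (GGACTCTCCC) and 54 to 45 (GGCTCCTCCC), all on the other strand. The Mrc1 window held 3 PU.1-type matches (GAGGAA, as TTCCTC on the other strand) and an NF-kB match at 11 to 2, of which the printed stretch holds the former. A STAT6-type match (TTC, 4 bases of any kind and GAA) was found in Retnla alone of the 7 (TTCACAAGAA at 145 to 136), and an AP-1 match (TGANTCA) in Trem2 alone. Of 32841 mouse promoters of this length, 45.8% held the NF-kB letters, 33.3% the C/EBP-type, 23.3% the PU.1-type, 6.75% the AP-1 and 5.85% the STAT6-type letters, so these matches are common sequence and describe the windows only.

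The libraries held 19.7 to 39.0 M UMIs (molecule tags, 1 per RNA molecule captured), and 41979 nuclei of 56766 barcodes were kept, with a median of 2365 to 3263.5 UMIs. They formed 26 clusters named from markers, the 9 genes kept out of clustering; 1 cluster stayed unnamed, with 2.46% of the nuclei in NS-I/R, 0.0821% in Enpa-I/R and 0.0151% in NS-Sham. Macrophage-like nuclei numbered 824 in sham hearts, 1404 with saline (NS-I/R) and 1138 with enpatoran (Enpa-I/R), and neutrophil-like nuclei 5, 1318 and 322. All 9 macrophage markers were detected in the macrophage-like nuclei of every library. At least 9 of 10 neutrophil markers were detected in the neutrophil-like nuclei of every I/R library. Clusters were named from these same markers, so their detection does not test the names. All 8 cardiomyocyte and all 8 endothelial markers were also detected in the macrophage-like nuclei of every library. Per library, cardiomyocyte markers there summed to 2422 to 5721 UMIs per M, and macrophage markers to 1910 to 3257. The cardiomyocyte sum was the higher in every library but Enpa-I/R replicate 2. Of 56340 barcode sequences, 425 occurred in more than 1 library, 4 of them among macrophage-like and neutrophil-like nuclei. NS-I/R replicate 3 stood apart from its group in several of the genes below, and results that rest on it are given with and without it.

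Most UMIs of 6 of the genes came from macrophage-like nuclei. In NS-I/R, those nuclei held 83.3% of all Arg1 UMIs, 87.9% of Mrc1, 83.7% of Cd163, 86.0% of Msr1, 65.9% of Tgfbi and 61.7% of Trem2. Retnla was scarce everywhere, with 81 UMIs in the sham group, 46 in NS-I/R and 26 with enpatoran. Chil3 and Gpnmb were the exceptions. Neutrophil-like nuclei held 46.3% of the 4424 Chil3 UMIs in NS-I/R and macrophage-like nuclei 27.2%. Fibroblast-like nuclei held 78.1% of the 320 Gpnmb UMIs in NS-I/R and 71.6% of the 88 in NS-Sham, against 7.81% and 5.68% in macrophage-like nuclei. Per nucleus, Gpnmb stood at 0.0749 UMIs in fibroblast-like and 0.0178 in macrophage-like nuclei of NS-I/R, so in these hearts it does not mark macrophages.

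**Figure D1:**
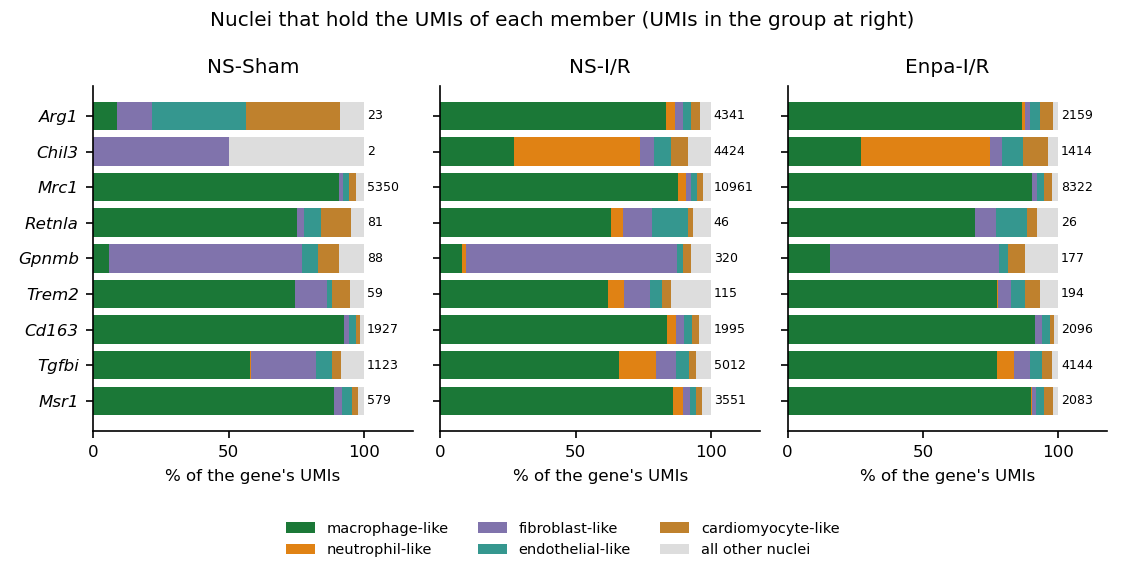
Horizontal stacked bars give, for each gene and group, the percentage of its UMIs (pooled over 3 libraries) that lay in each class of nuclei, with the gene's UMI total at the right. The green macrophage-like segment fills most of the Mrc1, Cd163 and Msr1 bars in every group, orange neutrophil-like nuclei hold 46.3% (NS-I/R) and 47.9% (Enpa-I/R) of Chil3, and fibroblast-like nuclei hold most of Gpnmb. The NS-Sham bars of Arg1 and Chil3 rest on 23 and 2 UMIs.

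Per nucleus, Mrc1 stood at 5.89, 6.86 and 6.60 UMIs in macrophage-like nuclei of sham, saline I/R and enpatoran I/R hearts. Lymphatic endothelial-like nuclei came next among the named non-immune classes, at 0.635, 0.586 and 0.669 UMIs, and blood endothelial-like nuclei had 0.0645 in NS-I/R. Arg1 had 2.57 UMIs per macrophage-like nucleus in NS-I/R, against 0.118 in neutrophil-like, 0.0510 in cardiomyocyte-like and 0.0292 in endothelial-like nuclei. Tgfbi had 2.35 UMIs per macrophage-like nucleus, 0.520 per neutrophil-like nucleus and 0.112 per fibroblast-like nucleus in that group. Chil3 had 1.56 UMIs per neutrophil-like and 0.858 per macrophage-like nucleus in NS-I/R, and between 0.0533 and 0.115 in the non-immune classes from lymphatic endothelial-like to smooth muscle-like. Endothelial-like nuclei should lack Chil3, so their 0.0728 UMIs per nucleus with saline I/R and 0.0259 with enpatoran are taken as the background level. Whether that background was free RNA or droplets shared with neutrophils was not tested. The T and NK lymphocyte-like nuclei of NS-I/R also had 1.24 Chil3, 1.01 Tgfbi, 0.692 Mrc1 and 0.648 Arg1 UMIs per nucleus, against 0.0417, 0.0417, 0.0208 and 0.146 in Enpa-I/R. The class held only 197 nuclei over all 9 libraries, so these pooled values rest on few nuclei. Whether those of NS-I/R shared droplets with myeloid cells was not tested.

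The first question was what I/R changed, set by NS-I/R against NS-Sham. In macrophage-like nuclei Arg1 and Chil3 went from almost nothing to high levels, Msr1 and Tgfbi rose about 3-fold (3.41-fold and 2.76-fold), and Cd163 fell 1.79-fold. Mrc1, Trem2, Gpnmb and Retnla did not pass the test. UMIs were summed per library over macrophage-like nuclei and tested with edgeR's quasi-likelihood test at a Benjamini-Hochberg adjusted p under 0.05, and CPM are TMM-scaled UMIs per M. In this comparison 5 of the 9 genes were called, 4 higher and 1 lower, where 34.8% of all 10393 genes tested were called (17.9% higher and 16.9% lower). The median log2 fold change was 1.42 over the 9 genes and 0.03 over all genes. Arg1 and Chil3, almost absent in NS-Sham, could pass the count filter only through the I/R hearts.

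Arg1 stood at 0, 1.98 and 0 CPM in NS-Sham replicates 1 to 3 and at 995, 934 and 1144 CPM in NS-I/R replicates 1 to 3. The sham hearts had next to none, and no NS-I/R library came near them. The sums were 2 UMIs against 3614, a ratio of 1076 after scaling to total UMIs, with an exact 95% interval of 298 to 8884 for counting error alone (edgeR adjusted p 3.51e-11). Chil3 had no UMI in any of the 824 NS-Sham macrophage-like nuclei, which allows a share of up to 0.364% of nuclei with a UMI. Its NS-I/R libraries stood at 293, 326 and 404 CPM, and with 3 counts taken as the floor of the sham group, the 1205 UMIs there are at least 239-fold higher (edgeR adjusted p 7.47e-09). Neither gene was detectable above a few UMIs in sham macrophage-like nuclei at this depth.

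Among the scavenger receptors, Msr1 stood at 244, 265 and 262 CPM in NS-Sham and at 898, 959 and 779 CPM in NS-I/R. Each NS-I/R library was well above every sham library. The log2 fold change was 1.77 (SE 0.15, edgeR adjusted p 4.04e-07). Cd163 moved the other way, from 966, 954 and 622 CPM to 343, 547 and 538 CPM. Its groups did not overlap, although NS-Sham replicate 3 lay close to the NS-I/R libraries. The log2 fold change was -0.84 (SE 0.19, edgeR adjusted p 0.00358). Mrc1 stood at 2120, 2593 and 2501 CPM in NS-Sham and at 3180, 3145 and 2047 CPM in NS-I/R. NS-I/R replicates 1 and 2 were above all sham libraries and replicate 3 was below them. With all libraries the log2 fold change was 0.21 (SE 0.17, edgeR adjusted p 0.358), and without NS-I/R replicate 3 it was 0.40 with an edgeR adjusted p of 0.0232.

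The matrix gene Tgfbi stood at 274, 332 and 395 CPM in NS-Sham and at 687, 647 and 1412 CPM in NS-I/R. Every NS-I/R library was above the sham libraries, with replicate 3 far above the others. The log2 fold change was 1.47 (SE 0.25, edgeR adjusted p 3.48e-04), and leaving out each library in turn gave 1.01 to 1.68. Trem2 was low, at 4.95, 28.7 and 31.8 CPM in NS-Sham and 8.65, 14.3 and 35.6 CPM in NS-I/R, and the groups overlapped (log2 fold change -0.12, SE 0.53, edgeR adjusted p 0.884). Gpnmb ranged from 0 to 7.95 CPM in NS-Sham and from 3.46 to 10.1 CPM in NS-I/R (edgeR adjusted p 0.209). Retnla stood at 77.5, 11.9 and 5.30 CPM in NS-Sham and at 21.6, 0.950 and 2.32 CPM in NS-I/R. NS-Sham replicate 1 alone was high, and the groups overlapped (log2 fold change -1.93, SE 0.84, edgeR adjusted p 0.0878). Without NS-Sham replicate 1 the Retnla difference was -0.21 (edgeR adjusted p 0.89), and without NS-I/R replicate 1 it was called at -4.13 (edgeR adjusted p 0.00717).

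**Figure D2:**
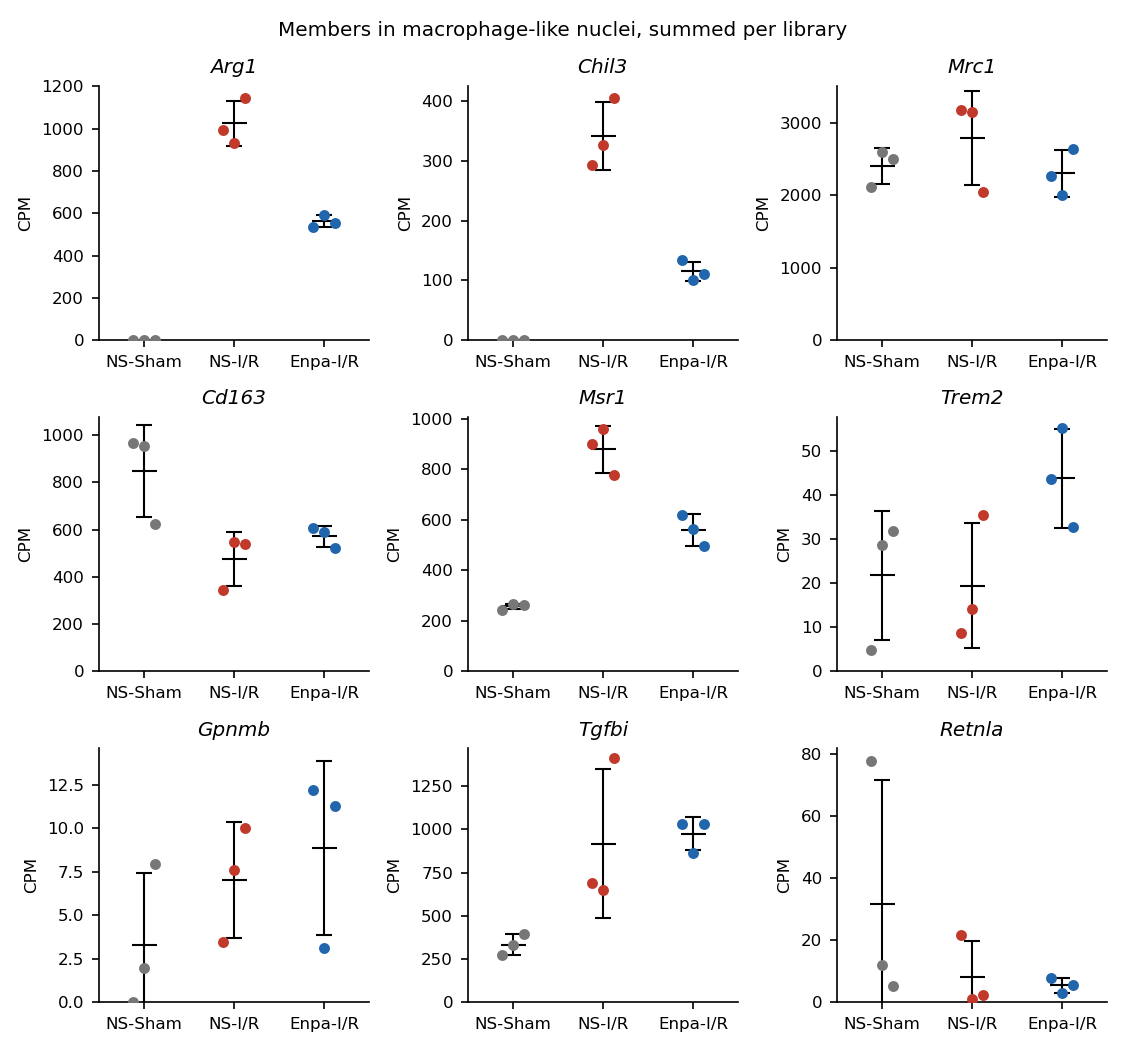
Each panel plots 1 gene's CPM in macrophage-like nuclei on a linear axis, 1 point per library, with the group mean and SD as bars. Arg1 and Chil3 sit at or near 0 in NS-Sham, highest in NS-I/R and between the groups in Enpa-I/R; Msr1 shows the same order from a higher base, Cd163 is highest in NS-Sham, and the Mrc1, Trem2, Gpnmb and Retnla groups overlap. The Tgfbi point at 1412 CPM is NS-I/R replicate 3.

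The share of nuclei with a UMI was compared after thinning each nucleus to 1000 UMIs, which left out 103, 186 and 111 shallower macrophage-like nuclei of the sham, saline I/R and enpatoran I/R groups. In that order the thinned shares for Arg1 were 0.0893%, 29.0 ± 6.19% and 19.3 ± 0.962% (unthinned 0.161%, 34.3% and 24.5%). For Chil3 they were 0%, 18.6 ± 3.64% and 7.25 ± 1.39% (unthinned 0%, 26.7% and 13.1%). Msr1 went from 18.4 ± 1.17% to 46.3 ± 2.00% and 35.5 ± 2.07% (unthinned 33.2%, 60.7% and 54.7%), and Tgfbi from 25.9 ± 2.42% to 45.2 ± 11.4% and 46.2 ± 1.88% (unthinned 44.0%, 60.2% and 65.0%). Cd163 went from 38.2 ± 5.60% to 20.3 ± 4.42% and 26.2 ± 0.693% (unthinned 48.7%, 27.3% and 34.7%). Endothelial-like nuclei of NS-I/R, with a median of 1687.5 UMIs against 2033 to 2151 in the macrophage-like nuclei of these libraries, had thinned shares of 1.34% for Arg1, 3.46% for Chil3, 1.10% for Msr1, 2.26% for Tgfbi and 0.543% for Cd163.

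Mrc1 showed a split between share and amount. Its thinned share was 73.1 ± 1.10% in sham, 52.9 ± 2.94% in saline I/R and 60.5 ± 2.61% in enpatoran I/R hearts (unthinned 80.8%, 59.0% and 70.1%), while nuclei with a Mrc1 UMI held 7.16 ± 0.674, 11.8 ± 2.35 and 9.48 ± 0.889 of them. Fewer nuclei held it in NS-I/R and those held more, and because the share goes against the CPM no order of groups is read from it. Nuclei with a Mrc1 UMI had Cd163 in 41.3% of cases in NS-I/R, and nuclei without it in 7.27%; their median depths were 2357 and 1749.5 UMIs. Over both macrophage-like clusters (described next), 45.9% of the 490 nuclei with an Arg1 UMI and 65.8% of the 914 without had Mrc1, at median depths of 2360.5 and 1922.5 UMIs. That order held within cluster 12 (69.9% and 81.0%) and turned within cluster 18 (40.3% and 30.7%), which held 397 of the Arg1-positive nuclei, so the pooled shares carry the mix of clusters. For Chil3 the pooled shares were 41.4% of Arg1-positive and 19.6% of Arg1-negative nuclei, but 46.1% and 42.6% within cluster 18 and 21.5% and 9.58% within cluster 12. Msr1 was in 81.4% of Arg1-positive and 57.8% of Arg1-negative nuclei of cluster 18, and in 67.7% and 47.9% in cluster 12. These are pooled nuclei of 3 hearts and no test was made on them.

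The macrophage-like class was made of clusters 12 and 18, and their balance differed between groups. Cluster 12 (2257 nuclei) was led by Mrc1, Cd163 and F13a1, and cluster 18 (1109 nuclei) by Arg1, Fn1, F10, Spp1, Tgfbi and the monocyte receptor Ccr2; since the 9 genes were kept out of clustering, these leading members did not define the clusters, though they follow genes that did. Of macrophage-like nuclei, cluster 18 took 7.53 ± 1.26% in sham, 47.6 ± 5.36% in saline I/R and 32.9 ± 2.09% in enpatoran I/R hearts. It held 91.8% of the Arg1, 90.2% of the Chil3, 69.5% of the Tgfbi and 63.6% of the Msr1 UMIs of macrophage-like nuclei in NS-I/R. By contrast, it held 30.8% of Mrc1 and 22.9% of Cd163. The values of the whole class therefore mix the level within each cluster with the balance of the clusters. The 60 cluster 18 nuclei of NS-Sham also carried dendritic cell markers, at 527 to 900 CPM summed per library against 28.9 to 112 in NS-I/R and 106 to 219 in Enpa-I/R, so a comparison with sham inside cluster 18 sets different mixtures side by side.

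Within cluster 12, NS-I/R against NS-Sham, 5 of 7 members tested were called where 23.6% of all genes were. Arg1 there stood at 147, 216 and 168 CPM in NS-I/R, with 1 UMI in NS-Sham, and Chil3 at 71.0 ± 44.8 CPM with none in NS-Sham. Msr1 rose within cluster 12 by 1.18 in log2 (edgeR adjusted p 8.01e-05), Tgfbi by 0.79 (edgeR adjusted p 0.0110) and Mrc1 by 0.53 (edgeR adjusted p 0.0470). Mrc1 in this cluster was at 2448, 2831 and 2834 CPM in NS-Sham and 4284, 4600 and 2822 CPM in NS-I/R, where replicate 3 again lay at the sham level. Cd163 was at 1132, 1060 and 668 CPM in NS-Sham and 523, 840 and 967 CPM in NS-I/R. These overlapped, and the fall of Cd163 seen in the whole class was not called within cluster 12 (log2 fold change -0.31, edgeR adjusted p 0.349).

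Within cluster 18 the same comparison called 6 of 8 members tested, where 17.9% of all genes were called. Mrc1 went from 387, 628 and 280 CPM in NS-Sham to 1948, 1764 and 1654 CPM after I/R, a log2 difference of 1.99 (edgeR adjusted p 2.18e-04). Arg1 (1984 ± 184 CPM in NS-I/R), Chil3 (650 ± 28.0 CPM), Msr1 and Tgfbi were higher as well. Retnla was lower, but 34 of its 35 sham UMIs in this cluster came from NS-Sham replicate 1. Cd163 (0.87, edgeR adjusted p 0.302) and Trem2 (1.67, edgeR adjusted p 0.410) were not called.

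**Figure D3:**
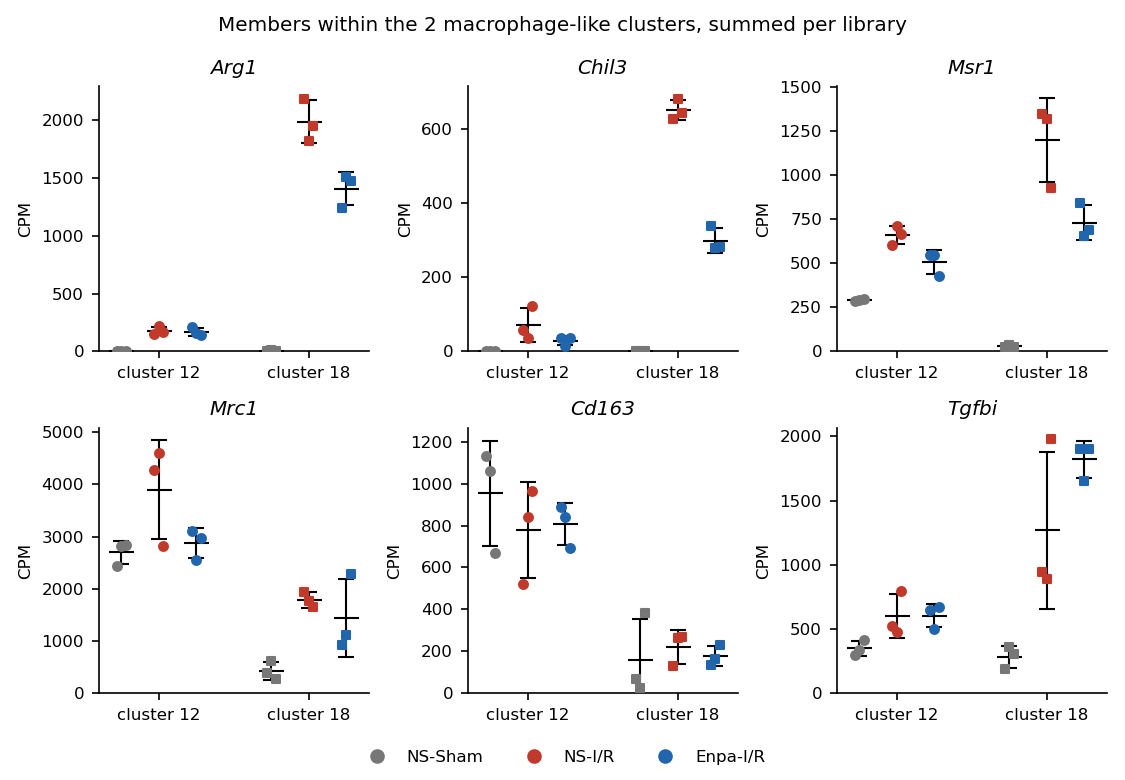
Points are the CPM of single libraries within macrophage-like cluster 12 (circles) and cluster 18 (squares), with the group mean and SD as bars, for 6 genes on linear axes. In the I/R groups Arg1 and Chil3 are high in cluster 18 and low in cluster 12, Mrc1 and Cd163 are higher in cluster 12, and the Enpa-I/R squares lie below the NS-I/R squares for Arg1, Chil3 and Msr1. NS-Sham squares rest on 60 nuclei.

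The second question was what enpatoran changed in injured hearts, set by Enpa-I/R against NS-I/R. In macrophage-like nuclei Chil3 was 2.96-fold, Arg1 1.82-fold and Msr1 1.57-fold lower with the drug, and Mrc1, Cd163, Tgfbi, Trem2, Gpnmb and Retnla did not pass the test. In all, 3 of the 9 members were called, each lower, where 6.42% of all genes tested were called (2.92% higher and 3.50% lower). The members' median log2 fold change was -0.28 and that of all genes -0.01. This comparison shares the NS-I/R libraries with the comparison against sham. The 2 comparisons are therefore not independent of each other.

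Chil3 stood at 293, 326 and 404 CPM in NS-I/R and 133, 101 and 111 CPM in Enpa-I/R. All drug-treated hearts were well below all saline hearts. The log2 fold change was -1.57 (SE 0.18, edgeR adjusted p 6.41e-04), and -1.68 to -1.41 when each library was left out. Markers of neutrophils, the other Chil3 source, moved in the same direction in these nuclei: the 10 markers summed to 431 to 1071 CPM in NS-I/R, 254 to 298 CPM in Enpa-I/R and 69.1 to 126 CPM in NS-Sham, with at least 9 of 10 detected in each I/R library. The thinned Chil3 share in endothelial-like nuclei was 3.46% with saline and 1.33% with enpatoran, against 18.6% and 7.25% in macrophage-like nuclei. The part that stray neutrophil RNA has in the Chil3 difference was not tested.

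Arg1 stood at 995, 934 and 1144 CPM in NS-I/R and 538, 594 and 556 CPM in Enpa-I/R. The drug-treated hearts lay close together and below every saline heart. The log2 fold change was -0.86 (SE 0.15, edgeR adjusted p 0.00409), and -0.93 to -0.76 with each library left out. Neutrophil-like nuclei, at 32.5 to 92.0 CPM in NS-I/R, held far less Arg1 than macrophage-like nuclei. Msr1 stood at 898, 959 and 779 CPM in NS-I/R and 621, 562 and 495 CPM in Enpa-I/R, again without overlap (log2 fold change -0.65, SE 0.14, edgeR adjusted p 0.0119). The Msr1 call was lost without NS-I/R replicate 1 (edgeR adjusted p 0.051), NS-I/R replicate 2 (0.0551), Enpa-I/R replicate 2 (0.0553) or Enpa-I/R replicate 3 (0.0658). Even so, Enpa-I/R values of Arg1, Chil3 and Msr1 remained above all sham libraries.

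Mrc1 (2268, 2000.0 and 2643 CPM in Enpa-I/R), Cd163 (607, 589 and 521 CPM) and Tgfbi (1029, 863 and 1032 CPM) overlapped the NS-I/R libraries, with log2 fold changes of -0.28 (SE 0.17), 0.27 (SE 0.19) and 0.09 (SE 0.24). Trem2 was at 43.6, 55.3 and 32.8 CPM in Enpa-I/R against 8.65, 14.3 and 35.6 CPM in NS-I/R. Only NS-I/R replicate 3 reached the drug-treated range. The Trem2 log2 fold change was 1.15 (SE 0.45, edgeR adjusted p 0.145). Without NS-I/R replicate 3, edgeR called 6 members: Trem2 at 1.97 (adjusted p 0.00397), Tgfbi at 0.56 (adjusted p 0.011) and Mrc1 at -0.44 (adjusted p 0.0233) joined Chil3, Arg1 and Msr1. Calls rose among all genes as well, to 2107 of 10818 from 667 of 10393 with all libraries. Gpnmb and Retnla were near the limit of detection in both groups.

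Drug and saline were also compared inside each cluster. In cluster 12 none of 7 members tested was called by edgeR (1.95% of all genes were). Chil3 there was at 71.0 ± 44.8 CPM in NS-I/R and 29.3 ± 11.7 CPM in Enpa-I/R, a log2 fold change of -1.29 (edgeR adjusted p 0.127) that was close in size to that of the whole class. Arg1 stood at 147, 216 and 168 CPM in NS-I/R and 209, 155 and 145 CPM in Enpa-I/R (log2 fold change -0.05, edgeR adjusted p 0.919). In that cluster Mrc1 and Msr1 had unadjusted p of 0.0291 and 0.0231 and Chil3 one of 0.00930. In cluster 18, 1 of 8 members tested was called (1.96% of all genes). This was Chil3, from 626, 681 and 643 CPM to 337, 277 and 280 CPM (log2 fold change -1.12, SE 0.21, edgeR adjusted p 0.0133). Neutrophil markers in cluster 18 summed to 552 to 1448 CPM in NS-I/R and 273 to 509 CPM in Enpa-I/R. The part that stray neutrophil RNA has in this Chil3 call was not tested. Arg1 in cluster 18 went from 2183, 1821 and 1947 CPM to 1242, 1506 and 1469 CPM, and Msr1 from 1349, 1319 and 924 to 842, 656 and 690 CPM. Neither pair of groups overlapped, yet neither was called (Arg1 log2 fold change -0.50, SE 0.20, edgeR adjusted p 0.256; Msr1 -0.71, SE 0.21, edgeR adjusted p 0.0862). Trem2 in cluster 18 was at 6.20, 12.6 and 29.4 CPM in NS-I/R and 45.4, 63.9 and 53.9 CPM in Enpa-I/R, without overlap and short of the threshold (1.65, SE 0.47, edgeR adjusted p 0.0744). The smaller share of cluster 18 in Enpa-I/R moves with the class-wide Arg1 value, and how much of that value it accounts for was not tested.

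In neutrophil-like nuclei none of the genes passed the test between drug and saline with all libraries. The 5 such nuclei of NS-Sham held 4 Tgfbi UMIs and none of the other members, so neutrophils were compared in I/R hearts only. Chil3 stood at 409, 510 and 1581 CPM in NS-I/R and 1508, 1741 and 1006 CPM in Enpa-I/R. NS-I/R replicate 3 lay within the drug-treated range and the other saline hearts far below it. The log2 fold change was 0.78 (SE 0.43, edgeR adjusted p 0.364). Tgfbi stood at 108, 112 and 574 CPM against 581, 586 and 892 CPM. Here too NS-I/R replicate 3 stood apart from its group, and the groups did not overlap only by a narrow margin (log2 fold change 1.31, SE 0.52, edgeR adjusted p 0.203).

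Mrc1 in neutrophil-like nuclei was lower with the drug in every library, at 233, 71.1 and 129 CPM in NS-I/R and 41.5, 38.5 and 38.0 CPM with enpatoran. This difference of -1.87 in log2 (SE 0.49) missed the threshold, with an edgeR adjusted p of 0.0762. These are small values: the thinned share with a Mrc1 UMI was 6.32 ± 1.17% in NS-I/R, against 2.81% in endothelial-like nuclei. Arg1 stood at 92.0, 32.5 and 87.7 CPM in NS-I/R and 104, 25.7 and 75.9 CPM in Enpa-I/R, with full overlap. Msr1 stood at 56.6, 40.6 and 72.6 CPM against 41.5, 0 and 19.0 CPM. Retnla (2 and 0 UMIs), Gpnmb (5 and 0) and Trem2 (7 and 1) were too scarce to test, as was Cd163. In all, 0 of the 5 members tested were called by edgeR, where 1.32% of all 6441 genes were (0.761% higher and 0.559% lower) and 1137 genes had an unadjusted p under 0.05; DESeq2 called 1 member, Mrc1 (adjusted p 0.0408).

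The outcome in neutrophil-like nuclei depended on NS-I/R replicate 3. Without it, edgeR called 3 of the 4 members it could test: Chil3 at 1.69 (adjusted p 6.56e-06), Tgfbi at 2.57 (adjusted p 7.98e-08) and Mrc1 at -1.95 (adjusted p 0.00617), and 1068 of 5272 genes in all. In that library 74.8% of neutrophil-like nuclei had a Chil3 UMI, against 29.7% and 31.3% in NS-I/R replicates 1 and 2 and 59.6%, 65.2% and 41.5% in Enpa-I/R. Thinned shares were 37.9 ± 21.0% with saline and 49.7 ± 9.66% with enpatoran, with 544 and 159 shallower nuclei left out. Purity of the class differed as well. Summed neutrophil markers were 5870 to 7931 CPM in NS-I/R and 11623 to 15637 CPM in Enpa-I/R, and endothelial markers 1880 to 3873 and 1763 to 2320 CPM. With finer clustering 17.1%, 18.5% and 41.6% of the neutrophil-like nuclei of NS-I/R and 14.9%, 14.2% and 5.66% of those of Enpa-I/R fell into an unnamed cluster rich in endothelial markers. In the nuclei that stayed neutrophil-like, Chil3 was at 465, 561 and 2514 CPM in NS-I/R and 1812, 2092 and 1101 CPM in Enpa-I/R, so replicate 3 was no closer to its group there.

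**Figure D4:**
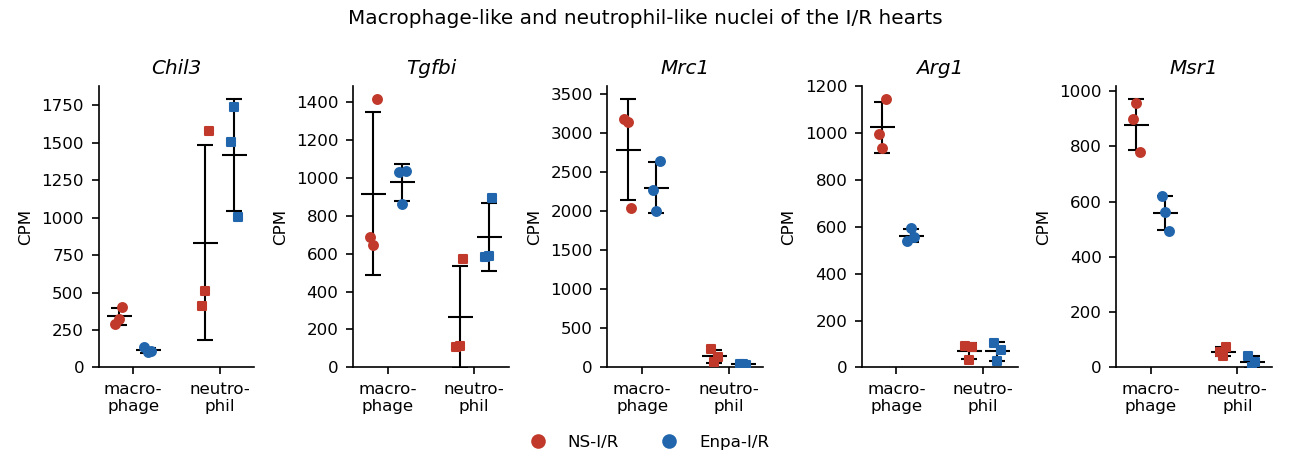
CPM of 5 genes in macrophage-like (circles) and neutrophil-like (squares) nuclei of the I/R hearts, 1 point per library with the group mean and SD, on linear axes. For Chil3 the drug-treated points lie below the saline points in macrophage-like nuclei and above 2 of the 3 saline points in neutrophil-like nuclei; the third saline point, at 1581 CPM, is NS-I/R replicate 3. Arg1 and Msr1 are low in neutrophil-like nuclei of both groups.

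Whether the drug difference itself differed between the classes was tested as an interaction in edgeR, with the library as a block. Of 7 members tested, 3 were called, where 1.87% of 10739 genes were (1.02% higher and 0.847% lower). The Chil3 difference was higher by 2.44 in log2 in neutrophil-like than in macrophage-like nuclei (SE 0.32, edgeR adjusted p 2.55e-06), and leaving out each library gave 2.21 to 2.94. For Tgfbi it was higher by 1.41 (SE 0.31, edgeR adjusted p 0.00550), a call lost without Enpa-I/R replicate 3 (1.32, adjusted p 0.0862) and with at least 1000 genes per nucleus (0.55, adjusted p 0.848). For Mrc1 the value was -1.58 (SE 0.44, edgeR adjusted p 0.0461), a call lost when NS-I/R replicate 1 or any Enpa-I/R library was left out. The Mrc1 call was also lost by DESeq2 (adjusted p 0.151), at a mitochondrial limit of 20% (edgeR adjusted p 0.239), with at least 1000 genes per nucleus (0.274) and at clustering resolution 2 (0.0716). Arg1 (0.54, edgeR adjusted p 0.704), Msr1 (-1.29, 0.362), Cd163 (-1.62, 0.259) and Trem2 (-1.70, 0.715) were not called. The make-up of both classes differed between the groups. Summed neutrophil markers were 5870 to 7931 CPM with saline and 11623 to 15637 CPM with enpatoran in neutrophil-like nuclei. In macrophage-like nuclei they were 431 to 1071 and 254 to 298 CPM. The part that this has in the interaction values, that of Chil3 included, was not tested.

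**Figure D5:**
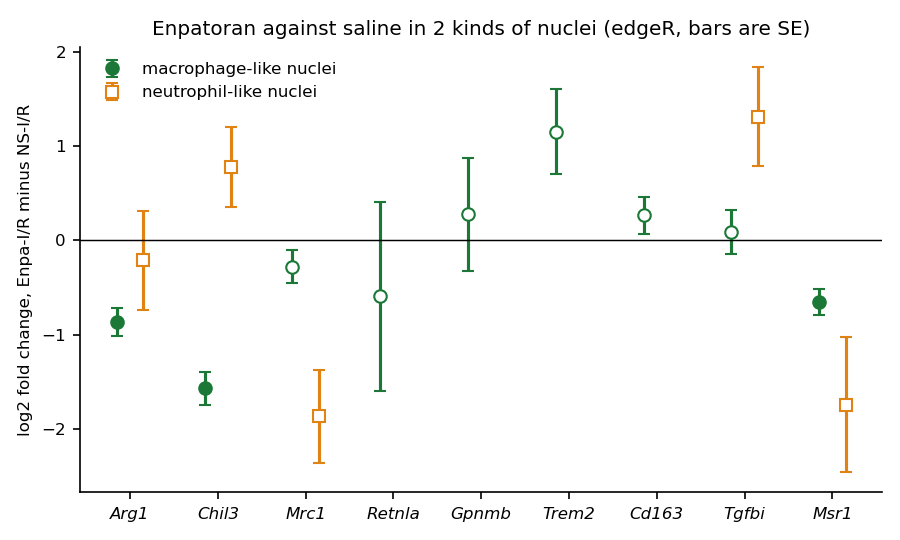
Log2 fold changes of Enpa-I/R against NS-I/R for each gene in macrophage-like nuclei (green circles) and neutrophil-like nuclei (orange squares), with the standard error from edgeR as bars and filled symbols for adjusted p under 0.05. The Chil3 circle lies at -1.57 and its square at 0.78; Arg1, Chil3 and Msr1 are the filled macrophage symbols, and no neutrophil symbol is filled. Genes without a square were too scarce to test.

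Summed over all nuclei, values mix the level per nucleus with how many nuclei of each class a heart gave, and in these sums alone fewer nuclei of a type and less RNA per nucleus cannot be told apart. Of the 9 members, 6 were called higher in NS-I/R than in NS-Sham and none lower, where 47.8% of all 18066 genes were called (23.9% in each direction). Msr1 rose by 2.41 in log2 (edgeR adjusted p 2.12e-05), Tgfbi by 1.93 (edgeR adjusted p 0.00249), Mrc1 by 0.85 (edgeR adjusted p 0.00217) and Arg1 by 7.33 (edgeR adjusted p 1.66e-06). Chil3 went from 2 to 4424 UMIs, a ratio of 2053 with an exact 95% interval of 568 to 16956 for counting error. Gpnmb, mostly in fibroblast-like nuclei, went from 2.09, 1.32 and 1.20 CPM to 4.92, 5.55 and 3.39 CPM without overlap (log2 fold change 1.59, SE 0.31, edgeR adjusted p 0.00204). Cd163, lower in the macrophage-like class as a whole, did not pass the test over all nuclei (-0.13, edgeR adjusted p 0.730). The share of macrophage-like nuclei was 6.18 ± 1.30% in sham and 9.14 ± 1.01% in NS-I/R hearts.

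With enpatoran, Arg1 was the only member called over all nuclei (16.5% of all genes were called, 7.75% higher and 8.74% lower), lower by 0.82 in log2 (edgeR adjusted p 0.0458), and its groups overlapped. The Arg1 call was lost when any NS-Sham library was left out, and likewise without replicates 1 or 3 of either I/R group. Without NS-I/R replicate 3, edgeR instead called Trem2 (1.88, adjusted p 0.00489), Tgfbi (0.63, adjusted p 0.00925), Gpnmb (-0.88, adjusted p 0.0215) and Msr1 (-0.57, adjusted p 0.0462). These are 4 of the 9 members, in a fit that called 8065 of all 18470 genes tested. Chil3 was at 34.6, 30.6 and 126 CPM in NS-I/R and 20.5, 38.0 and 11.3 CPM in Enpa-I/R (log2 fold change -1.46, edgeR adjusted p 0.0920). NS-I/R replicate 3 was by far the highest, and without it the Chil3 difference was -0.48 (edgeR adjusted p 0.313). Msr1 (-0.60, edgeR adjusted p 0.0589) and Gpnmb (-0.72, edgeR adjusted p 0.108) were not called either, although the Gpnmb groups, with 3.22, 3.17 and 2.00 CPM in Enpa-I/R, did not overlap. The share of neutrophil-like nuclei was 8.55 ± 1.05% with saline and 2.70 ± 1.97% with enpatoran, while Chil3 within those nuclei stood at 833 ± 650 and 1418 ± 376 CPM. The purity of the class differed between these groups, as given above. What the number of nuclei and the level within them each add to Chil3 over all nuclei was not tested.

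Further genes of these pathways were read in macrophage-like nuclei, where 34.8% of all genes were called with I/R. The 8 markers of infiltrating monocyte-derived macrophages moved in the same nuclei, with sums of 98.1 to 228 CPM in NS-Sham (4 to 6 of 8 detected), 3780 to 4194 CPM in NS-I/R and 2329 to 2595 CPM in Enpa-I/R (all 8 detected), as did the share of cluster 18 given above. The 8 resident markers summed to 4665 to 6872, 4967 to 6114 and 4736 to 6062 CPM. The sum of that list did not set the clusters apart in NS-I/R, at 4171 to 6836 CPM in cluster 12 and 5217 to 8252 in cluster 18. In NS-Sham the list's sums were 5233 to 7396 and 398 to 831 CPM, and in Enpa-I/R 5284 to 6845 and 3427 to 4838 CPM. In cluster 18, 6 to 7 of the 8 genes were detected per NS-I/R library and 1 to 3 per NS-Sham library. Single genes can carry such sums, and whether single resident genes differed between the clusters is not read from them. The part that the shift in infiltrating markers and cluster 18 has in the list values was not tested. Of the IL-4, IL-13 and IL-10 axis, 14 of 18 genes could be tested and 8 were called, 6 higher and 2 lower, with a median log2 fold change of 0.43 against 0.03 for all genes; Il4, Il13, Il10 and Socs1 were too scarce. Il4ra, the receptor chain shared by IL-4 and IL-13, rose from 60.5 to 481 CPM (log2 fold change 2.93), and Hif1a, a hypoxia-induced factor, from 50.8 to 526 CPM (3.40). Socs3, an inhibitor of STAT3 signaling, rose from 6.82 to 108 CPM (3.83), while Irf4, a factor of the IL-4 response, fell from 33.6 to 12.9 CPM (-1.35). Of Trem2-linked lipid and lysosome genes 12 of 18 were called, 11 higher, with a median of 0.72. Among them Ctsl, a lysosomal protease, rose by 3.59 and Fabp5, a fatty acid carrier, by 3.32, while Trem2 itself did not pass the test.

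Of 16 inflammatory genes, 12 could be tested in the same nuclei and 11 were called, 10 higher, with a median log2 fold change of 3.58. Ccl2, a monocyte attractant, went from 19.3 to 549 CPM (4.84), and the log2 fold change was 6.18 for the neutrophil attractant Cxcl2 and 5.36 for the cytokine Il6. Of 14 paralogs of the members, 8 were too scarce to test and 5 of the other 6 were called, all higher. Arg2, the mitochondrial arginase, went from 0.883 to 25.0 CPM. Trem1 and Retnlg, which are also neutrophil markers, went from 0 to 38.5 and 32.3 CPM. Such genes, and Il6 at 1.10 CPM in NS-Sham, could pass the count filter only through the I/R hearts. A call in the higher direction was therefore largely set by the filter. With enpatoran every called gene of these lists was lower: 4 of 14 of the interleukin axis (median -0.30), 4 of 18 of the Trem2-linked genes (median 0.01), 6 of 12 inflammatory genes (median -0.93) and 4 of 6 paralogs (median -1.53), against 6.42% of all genes called and a median of -0.01. Il4ra was at 481 CPM in NS-I/R and 305 CPM in Enpa-I/R (log2 fold change -0.66, edgeR adjusted p 0.0304), Pparg at 128 and 49.1 CPM (-1.38, edgeR adjusted p 0.0219) and Il6 at 46.7 and 4.67 CPM (-3.32, edgeR adjusted p 0.00107). Retnlg, itself 1 of the 10 neutrophil markers summed above, was at 32.3 and 3.21 CPM.

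In neutrophil-like nuclei 1.32% of all 6441 genes passed the test between drug and saline. The list calls there were 0 of 13 in the interleukin axis, 1 of 18 Trem2-linked genes (Ctsd, a lysosomal protease, higher by 1.60), 1 of 8 inflammatory genes (Il6, lower) and 0 of 5 paralogs. Across the 9 macrophage-like sums, the genes whose log-scaled pattern was most like that of Arg1 were Adam8 (Pearson r 0.998) and F10 (0.996), and for Chil3 they were Ccr1 (0.997) and Furin (0.994). Msr1 was most like Itgam (0.991) and Hp (0.991), and Tgfbi most like Lpp (0.987) and Snx1 (0.987). Mrc1 was most like Pik3r1 (0.969) and Cd163 most like Zscan29 (0.966). The likeness of Trem2 to Fkbp2 (0.951), Gpnmb to Hspb7 (0.956) and Retnla to Cep97 (0.941) rests on few UMIs of these members. Such r values come from 3 groups of 3 libraries and 9174 candidate genes, share the libraries and their depth, and describe these data only.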

How the data were processed

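Nuclei of 9 frozen mouse hearts were sequenced as 10x Genomics Chromium v3.1 3' libraries, per the labels' protocols. The authors deposited raw UMI counts per gene and barcode; the file headers name Cell Ranger 8.0.0, while the submitters' processing notes list Cell Ranger 6.1.1, Seurat and the builds GRCm39 and GRCh38. Intron counting and strand settings are not given in the sources used here. Replicates are separate libraries, and no batch or date is given.

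Nuclei with at least 500 genes and at most 5% mitochondrial UMIs were kept (11.8% to 23.7% of barcodes exceeded that limit), and 133 to 538 barcodes per library with the highest Scrublet doublet scores were removed, at 0.8% per 1000 barcodes. Leiden clustering (scanpy 1.11.5, 2000 variable genes, 30 components, 15 neighbors, resolution 1) left out 67 genes, the 9 members and all gene lists but the paralogs among them. Clusters were named from markers of 15 cell types, needing 3 markers and a lead of 0.5 in log2; those thresholds were set after seeing the data, and the names can differ from the authors' own.

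UMIs of a class were added up in each library. The quasi-likelihood test of edgeR 4.0.16 followed filterByExpr and TMM scaling, with Benjamini-Hochberg adjustment over all genes and a threshold of 0.05, in 1 fit of 9 libraries, or of the 6 I/R libraries for neutrophil-like nuclei. Shares were thinned by expectation to 1000 UMIs. Intervals are exact at 95%, floors are 3 counts, and both cover counting error only. The edgeR step was tested on simulated data. Likeness used log2 of CPM plus 10. All 9 members are named, with the 4 largest called changes per list of at least 10 CPM, fewer printed. The members and lists were chosen with earlier results of these data known. Alternatives were other size factors, no count filter, DESeq2 1.42.0, a replicate block, left-out libraries, fits of 6 libraries, single clusters, other nucleus filters, kept doublets, resolution 2 and other thinning.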

Additional observations from a re-analysis of the deposited data

Results flagged for a closer look

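For 3 genes the difference between enpatoran and saline differed between neutrophil-like and macrophage-like nuclei of the same hearts, by edgeR's test of that difference. Chil3 differed by 2.44 in log2, with the drug-treated hearts lower in macrophage-like nuclei in 3 of 3 libraries and higher than NS-I/R replicates 1 and 2 in neutrophil-like nuclei. Tgfbi differed by 1.41 and Mrc1 by -1.58, and both calls were lost when single libraries were left out and with at least 1000 genes per nucleus. With the drug, summed neutrophil markers were higher in neutrophil-like and lower in macrophage-like nuclei, as given above. Their part in these differences was not tested.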

How the results depend on the processing

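Of 813 pairs of a gene and an alternative, 731 kept direction and side of the threshold, 30 lost a call, 27 gained one and 25 reversed; except where stated, the cause was not tested. Against sham, 5 of 9 members were called in macrophage-like nuclei and 5 to 6 under every alternative run, and over all nuclei 6 under every one. With the drug, the macrophage count of 3 was 0 within cluster 12 and 1 within cluster 18, and 2 to 6 with each library left out. Each cluster sums fewer nuclei than the class, and fold changes moved as well. For Arg1 the log2 value was -0.86 in the class, -0.05 in cluster 12 and -0.50 in cluster 18. The neutrophil count of 0 was 2 without the count filter, 1 by DESeq2, 1 with doublets kept and 0 to 3 with libraries left out. Over all nuclei the count of 1 was 2 by DESeq2, 2 at a mitochondrial limit of 20%, 0 in a fit of 6 libraries, 0 with at least 1000 genes per nucleus and 0 to 4 with libraries left out. The interaction count of 3 was 1 with at least 1000 genes per nucleus and 1 to 3 with libraries left out. Same-numbered libraries did not deviate together in macrophage-like nuclei (r -0.078 to 0.033) or over all nuclei (r -0.141 to 0.053). Neutrophil-like sums were not checked for this. With the replicate block the counts were 6 and 3 in macrophage-like, 2 in neutrophil-like and 6 and 0 over all nuclei. In neutrophil-like nuclei that block called 212 of 6441 genes, against 85 without it. Tgfbi over all nuclei with the drug was 0.038 in log2 with the block.

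Reversals were of genes not called, save Cd163. Within cluster 18 Cd163 was 0.87 against sham and -0.34 with the drug, and Trem2 against sham was 1.67, and 0.026 within cluster 12. At a mitochondrial limit of 20% Retnla was 0.13 and Gpnmb -0.19 with the drug in macrophage-like nuclei. With libraries left out, macrophage-like Trem2 against sham ranged from -0.93 to 0.31, and with the drug Retnla from -1.08 to 1.62, Gpnmb from -0.055 to 0.72 and Tgfbi from -0.11 to 0.56. Neutrophil-like Arg1 ranged from -0.90 to 0.40. Over all nuclei against sham Retnla ranged from -2.03 to 0.30, Cd163 from -0.39 to 0.052 and Trem2 from -0.17 to 1.11, and with the drug Tgfbi from -0.43 to 0.63 and Retnla from -1.07 to 0.23. The interaction for Arg1 ranged from -0.13 to 1.28. Among all genes, the calls behind the background shares moved more. With the drug, 667 in macrophage-like nuclei became 230 (without NS-I/R replicate 1) to 2107 (without NS-I/R replicate 3) and 1127 without the filter. In neutrophil-like nuclei 85 became 0 to 1068 with libraries left out, 25 with at least 1000 genes per nucleus and 359 without the filter. Over all nuclei 2980 became 227 (without Enpa-I/R replicate 3) to 8065 (without NS-I/R replicate 3) and 570 with 6 libraries, and for the interaction 201 became 88 to 402, 56 with at least 1000 genes per nucleus and 341 at resolution 2. Trem2, Gpnmb and Retnla rest on few UMIs, and the neutrophil-like sums on as few as 53 nuclei per library, which limits what could be detected there.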
